A study of Rattus norvegicus with 15 samples.

Results

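The genes described here were listed as markers of 3 kinds of neuron other than dopamine neurons. Fev and Slc6a4 belong to serotonin neurons, Dbh and Slc6a2 to noradrenaline neurons, and Chat to cholinergic neurons. Tph1, listed with the serotonin genes, encodes an enzyme of serotonin synthesis known from the pineal gland and gut. The 6 genes were taken by symbol from the platform's gene annotation, which names 4736 genes by probe sets of 1 symbol. All 6 were among them, with 8 probe sets of the 8740 in the table that are not controls. Each probe set combines the signals of several short probes. Slc6a4 and Slc6a2 had 2 probe sets each and the other genes 1 each.

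The samples were neurons cut by laser capture from the rat midbrain, with total RNA measured on an Affymetrix array. There were 8 arrays of the substantia nigra pars compacta (SNc 1 to SNc 8) and 7 of the ventral tegmental area (VTA 1 to VTA 6 and VTA 8). No treatment or genotype separates the groups, and the labels give no strain, sex, age or number of animals, nor how a neuron was recognised before it was cut. What a p-value is measured against here is the spread between arrays, and that spread may be technical.

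Neurons of all 3 kinds lie elsewhere in the brainstem, some of them next to these regions. Serotonin neurons fill the raphe nuclei, behind and above the VTA, and send axons into both regions. Noradrenaline neurons lie farther back, in the locus coeruleus and other groups of the pons and medulla. Cholinergic neurons make up the oculomotor nucleus above the VTA and the pedunculopontine nucleus behind the SNc. Serotonin and noradrenaline neurons share with dopamine neurons the enzyme Ddc, the vesicle transporter Slc18a2 and the monoamine oxidases. The genes described here are those that dopamine neurons are not known for. In captured tissue, fewer cells of a type and less RNA per cell cannot be told apart.

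The captures carried the genes of dopamine neurons. Of 11 dopamine neuron markers 10 had a probe set, and all 10 passed the filter on low signals described below. Passing it is a weak sign, since 10 of 22 genes known from other organs passed it too. Pitx3, with means of 129.6 in SNc and 154.4 in VTA, and Foxa2, with 116.5 and 124.9, were the dimmest of the 10. The enzyme of the rate-limiting step of dopamine synthesis, Th, reached 6615 ± 527.2 in SNc and 7193 ± 769.7 in VTA (SD, n = 8 and 7). Slc17a7, a vesicular glutamate transporter and the only glutamate neuron marker with a probe set, lay at 3.733 ± 1.863 in SNc and 4.026 ± 1.629 in VTA. The other listed markers, Slc17a6 and Slc17a8, had no probe set, so this value does not tell whether glutamate neurons were captured. By median correlation with the remaining arrays, VTA 5 and VTA 8 stood apart at 0.910 and 0.919, where the others lay between 0.926 and 0.941.

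No member differed between the regions past the threshold, which does not show that their levels were alike, and 4 of the 8 probe sets were too dim to enter the test. Signals are on the authors' linear intensity scale. Differences are SNc minus VTA of log2(intensity + 16), tested with limma over all probe sets outside the lowest 40% by mean, which set the filter at a signal of 26.3. Of the 8 member probe sets 4 passed this filter, those of Fev and Chat and 1 each of Slc6a4 and Slc6a2. Of these 4, 0 passed an adjusted p of 0.05 in limma, where 1.98% of all 5244 probe sets tested passed, 1.14% with lower signal in SNc. At an unadjusted p under 0.05 there was 1 of 4, Fev, where 15.4% of all probe sets tested lay under it. The exact permutation of arrays also gave 0 after adjustment, with an adjusted p of 0.183 for Fev, where all alternatives together gave 0.115 to 0.365. The arrays of both regions overlapped in all 8 member probe sets, and failed to overlap in 0.858% of all probe sets tested. The plot of signals by array shows every value.

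**Figure D1:**
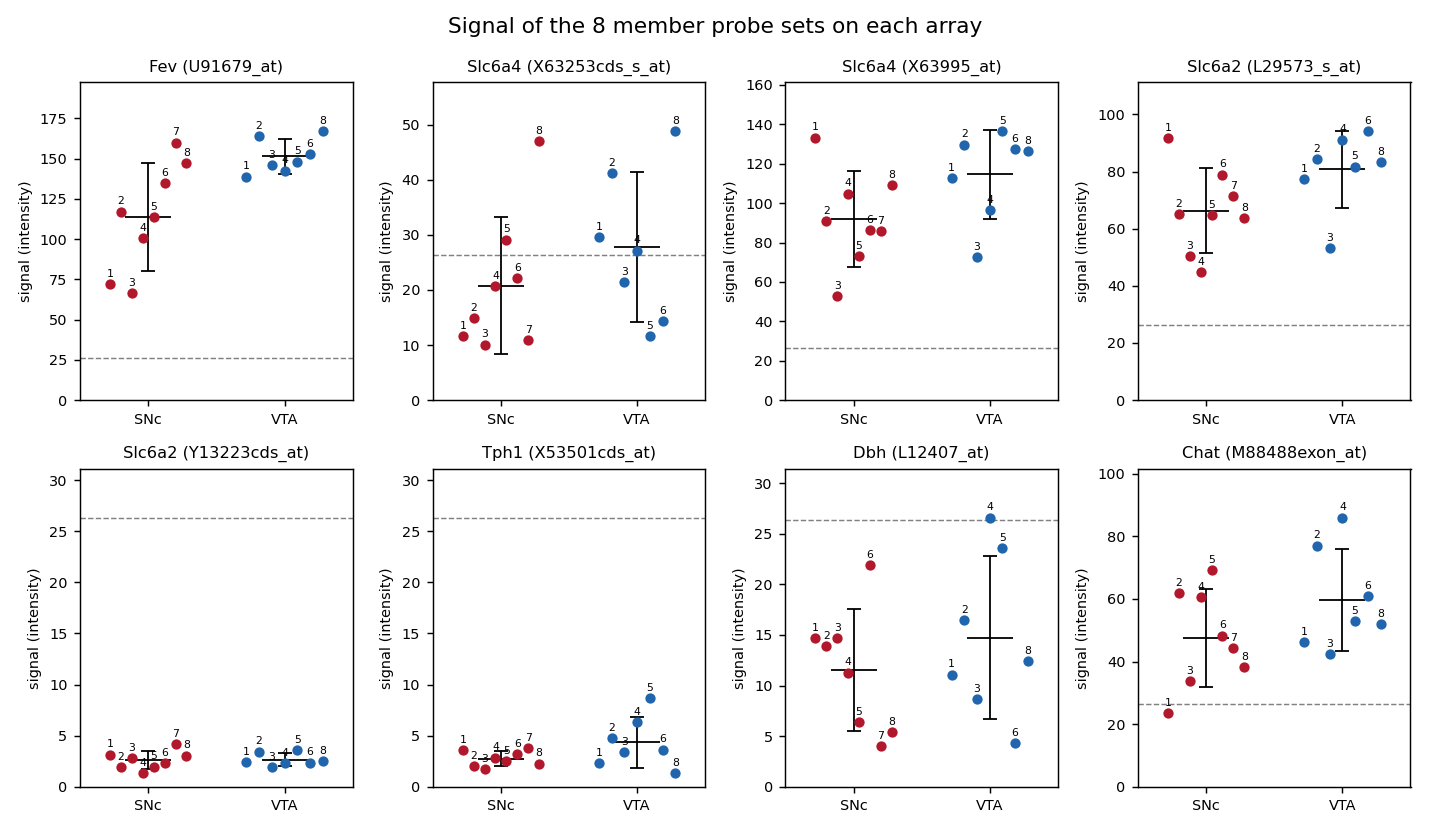
Signal of each member probe set (linear intensity, vertical axis) on the 8 SNc arrays (red) and the 7 VTA arrays (blue), each point 1 array with its number, bars the mean ± SD, dashed line the filter at a signal of 26.3. The regions overlap in every panel; Fev, the brighter Slc6a4 and Slc6a2 probe sets and most Chat values lie above the line, the dimmer Slc6a4 probe set on either side of it, and Tph1, the dimmer Slc6a2 probe set and nearly all Dbh values under it.

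Fev, also called Pet-1, is an ETS transcription factor that in the brain is found in serotonin neurons and switches on their transmitter genes. Its signal in SNc ran from 66.33 to 159.9 with a median of 115.4, and in VTA from 138.9 to 167.3 with a median of 148.2. The SNc arrays were spread wide, with SNc 3 and SNc 1 lowest at 66.33 and 71.97 and SNc 8 and SNc 7 at 147 and 159.9, within the VTA range. The 6 SNc arrays other than SNc 7 and SNc 8 lay below the lowest VTA array. The VTA arrays were close together, with an SD of 10.69 around a mean of 151.4, against 33.47 around 113.9 in SNc. The log2 difference was -0.41 (SE 0.16, unadjusted 95% interval -0.75 to -0.07, unadjusted p = 0.0208, adjusted p = 0.223). This is a signal 1.33-fold higher in VTA on the scale with the offset, and it missed the threshold.

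Slc6a4 encodes the serotonin transporter, which takes released serotonin back into serotonin neurons. Its brighter probe set, X63995_at, ran from 52.93 to 133.3 in SNc (median 88.67) and from 72.78 to 136.7 in VTA (median 126.4). SNc 3 and VTA 3 were the lowest of their regions, and SNc 1 was nearly as high as the highest VTA array, VTA 5. The log2 difference was -0.28 (SE 0.17, 95% interval -0.63 to 0.06, adjusted p = 0.434). The interval allows a signal up to 1.55-fold higher in VTA or 1.05-fold higher in SNc.

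The other Slc6a4 probe set, X63253cds_s_at, did not pass the filter. It ran from 10.07 to 47.04 in SNc (median 17.78) and from 11.61 to 48.9 in VTA (median 27.13). It lay under 26.3 on 6 of 8 SNc arrays and on 3 of 7 VTA arrays, and was highest on SNc 8 and VTA 8. Without the filter its difference was -0.25 (SE 0.22, adjusted p = 0.667). After each region's mean was subtracted, the 2 probe sets of this gene had r = 0.146 over 15 arrays (permutation p = 0.614, adjusted over 12 relations 0.974; rho = 0.039, permutation p = 0.894, adjusted 0.894). Without SNc 8 and VTA 5, r was 0.151.

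Tph1 encodes a tryptophan hydroxylase, the enzyme of the first step of serotonin synthesis, known from the pineal gland and gut. In brain serotonin neurons this step is carried mainly by Tph2, which is not analysed here. Tph1 ran from 1.765 to 3.769 in SNc (median 2.69) and from 1.376 to 8.712 in VTA (median 3.65). Every array lay far under the filter, and only VTA 5 at 8.712 and VTA 4 at 6.312 exceeded 5. The unfiltered difference of -0.11 (SE 0.08, adjusted p = 0.613) is at a level where the offset of 16 sets most of the value.

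The noradrenaline members were split between a dim enzyme and a transporter with 1 dim and 1 brighter probe set. Dbh, dopamine beta-hydroxylase, turns dopamine into noradrenaline inside vesicles and is the step that separates noradrenaline neurons from dopamine neurons. It ran from 4.043 to 21.92 in SNc (median 12.6) and from 4.294 to 26.6 in VTA (median 12.43). All 8 SNc arrays and 6 of 7 VTA arrays lay under 26.3, the exception being VTA 4. Its unfiltered difference was -0.15 (SE 0.17, 95% interval -0.51 to 0.22, adjusted p = 0.779). It was -0.06 without VTA 4, -0.24 without VTA 6 and -0.02 with array weights.

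Slc6a2 encodes the noradrenaline transporter. Its probe set L29573_s_at ran from 44.88 to 91.67 in SNc (median 64.83) and from 53.12 to 94.29 in VTA (median 83.36). SNc 1 lay among the highest VTA arrays, and VTA 3 at 53.12 lay well under the other 6 VTA arrays, which began at 77.32. The log2 difference was -0.24 (SE 0.15, 95% interval -0.54 to 0.06, adjusted p = 0.452).

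The other Slc6a2 probe set, Y13223cds_at, was close to 0 on every array, from 1.382 to 4.173 in SNc (median 2.553) and from 1.93 to 3.576 in VTA (median 2.453). Its difference was -0.01 (SE 0.07, adjusted p = 0.983). The 2 probe sets of this gene therefore gave unlike pictures, one above the filter on all 15 arrays and one below it on all 15. Probe sequences were not used here, and what each probe set binds was not tested.

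Chat, choline acetyltransferase, makes acetylcholine and defines cholinergic neurons. It ran from 23.65 to 69.18 in SNc (median 46.23) and from 42.43 to 85.95 in VTA (median 52.94). SNc 1 was the lowest array and the only one under 26.3, and VTA 4 and VTA 2 were highest at 85.95 and 77.02. The log2 difference was -0.27 (SE 0.18, 95% interval -0.64 to 0.10, adjusted p = 0.501), within the spread of the arrays.

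Signals of different probe sets cannot be read as amounts of RNA, so nearness to background was described with genes of other organs. These were 22 genes with a probe set, known from liver, pancreas, muscle, milk, sperm or kidney, and their brightest probe sets had a median signal of 26.1 over all arrays. Of the 22, 2 had a higher mean signal than Fev at 131.4 and the brighter Slc6a4 probe set at 102.6, 3 a higher one than Slc6a2 at 73.08, and 4 than Chat at 53.13. For the dimmer Slc6a4 probe set at 24.04 it was 12, for Dbh at 13.03 it was 16, and for Tph1 and the dimmer Slc6a2 probe set all 22. Over all 45 probe sets of these genes the median signal was 13.79, and 2 were brighter than Fev, 2 than the brighter Slc6a4 probe set, 3 than Slc6a2 and 4 than Chat. Of the 45, 15 were brighter than the dimmer Slc6a4 probe set, 24 than Dbh, 42 than Tph1 and 43 than the dimmer Slc6a2 probe set. The 2 brighter than Fev were Ins2, at 444.7 ± 72.61 in SNc and 517.1 ± 79.28 in VTA, and Ins1, at 190 ± 37.81 in SNc and 197.4 ± 61.75 in VTA. Both are insulin genes of the pancreas, and neither is known as a gene of midbrain neurons. Yet these probe sets lay well above the filter. The other probe sets of the same genes were dimmer, with region means of 6.523 to 11.49 for Ins2 and 35.64 to 49.18 for Ins1. No detection calls were used.

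All 8 member probe sets had a negative difference, but that of the dimmer Slc6a2 probe set was only -0.006. With each array centred on its median it was 0.086. For the 4 tested members, probe sets of like signal leaned the same way. The 4 under the filter were not part of that comparison. The 4 that passed the filter had a median difference of -0.28. Over all 5244 probe sets tested the median was -0.04, and 56.7% were negative. Median signal per array lay between 38.0 and 45.3 in SNc and between 42.3 and 46.8 in VTA. With the tested probe sets divided into 10 groups by signal, the median difference was -0.06 in the group that holds Fev, -0.07 in that of Slc6a4, -0.08 in that of Slc6a2 and -0.10 in that of Chat, while in the brightest group it was 0.07. Of the probe sets in its own group, 9.73% had a difference at or below that of Fev, 20.6% at or below that of Slc6a4, 25.8% for Slc6a2 and 23.6% for Chat. Among the 10 tested genes of other organs 8 were negative, with a median of -0.15 and 0 past the threshold in limma, 2 having an unadjusted p under 0.05. What part the lean of dim probe sets has in the members' differences was not tested.

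**Figure D2:**
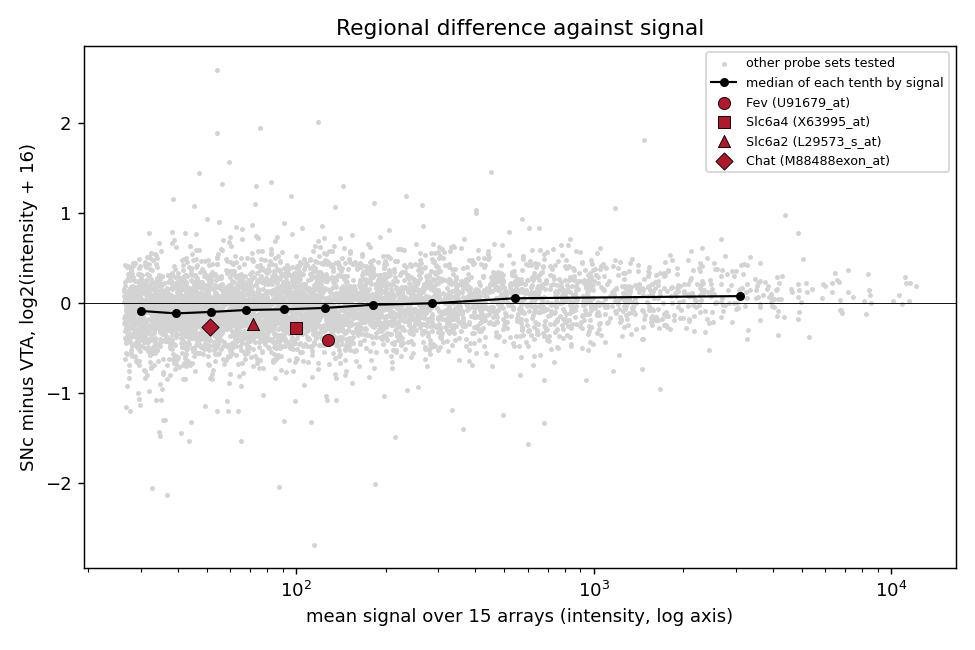
SNc minus VTA difference of log2(intensity + 16) (vertical axis) against mean signal over 15 arrays (horizontal log axis) for the 5244 probe sets tested (grey), with the median of each of 10 groups by signal (black line) and the 4 tested member probe sets (red). The black line runs below 0 on the dim side and ends at 0.07 in the brightest group; the members lie below it, inside the grey cloud.

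The members were also compared under other scalings. With each array centred on its median, the differences were -0.32 for Fev, -0.19 for Slc6a4, -0.15 for Slc6a2 and -0.17 for Chat, and unadjusted p for Fev was 0.06 (adjusted p = 0.347). After quantile normalization they were -0.36, -0.22, -0.15 and -0.18 in the same order of genes. Centring also moved the split of all calls, with 37 of 104 lower in SNc, against 60 of 104 as reported.

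**Figure D3:**
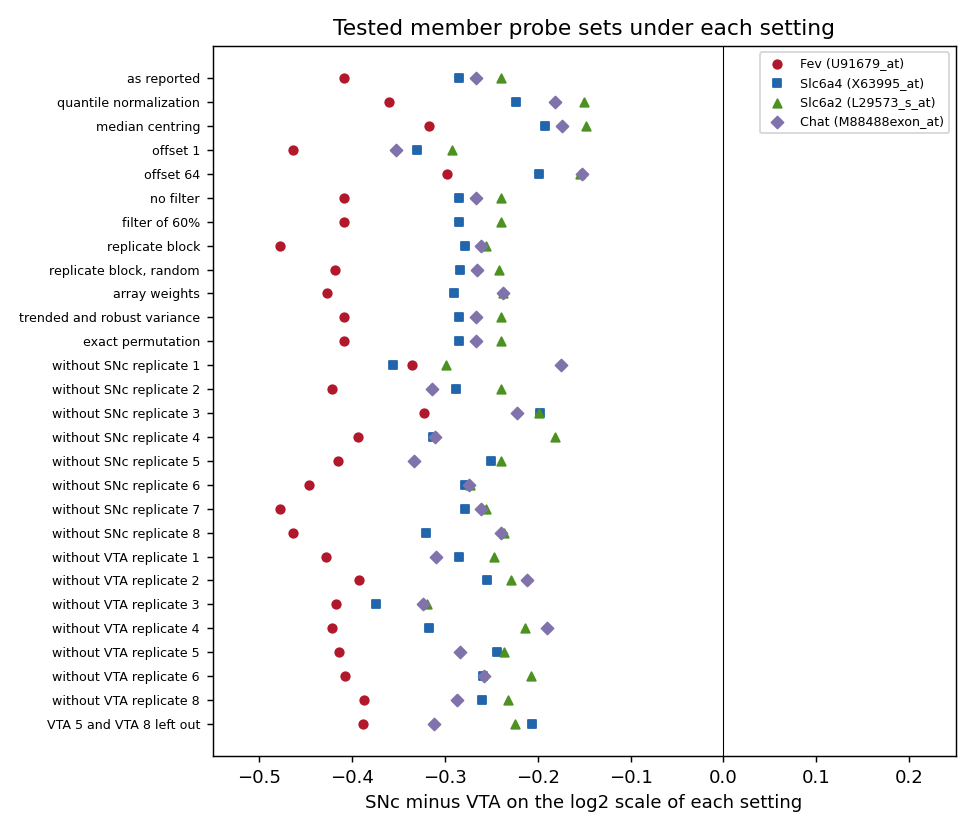
SNc minus VTA difference of the 4 tested member probe sets (horizontal axis, log2 scale of each setting) as reported and under each of 27 alternatives (rows). Every point lies below 0, between -0.48 for Fev and -0.15 for Slc6a2; Chat has no point with the filter of 60%, which removes it.

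No pair of members varied together across arrays past the threshold. After each region's mean was subtracted, 12 relations were computed over 15 arrays. They were the 6 pairs of tested members, the 2 pairs of probe sets of 1 gene, and each tested member against the array's median signal. The highest r was 0.564, between the brighter Slc6a4 and Slc6a2 probe sets (permutation p = 0.0389, adjusted p = 0.467; rho = 0.289, permutation p = 0.319, adjusted p = 0.832). It fell to 0.136 without SNc 3 and VTA 3, the 2 arrays farthest from the median of the Slc6a4 values. Leaving out the farthest arrays narrows the spread, so this fall alone does not show that r rests on them. Fev against the brighter Slc6a4 probe set, both serotonin genes, gave r = 0.18 (permutation p = 0.588, adjusted p = 0.974; rho = 0.075, permutation p = 0.806) and 0.173 without SNc 3 and SNc 1. Against the array's median signal, r ran from -0.006 for Slc6a4 to 0.382 for Slc6a2, with adjusted permutation p of 0.986 and 0.72, rho of -0.161 and 0.393, and r of 0.093 and 0.245 without SNc 4 and SNc 2.

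The probe sets of other named genes most like each member were found over the same 15 values, among 4299 probe sets. For Fev they were those of Lhb (r = 0.849), Hnrnpa3 (0.820) and Eln (0.806). For Slc6a4 they were Calcrl (0.844), Mmp3 (0.808) and Tnrc6b (0.787), and for Slc6a2 Ptpre (0.925), Akr1c3 (0.892) and Cacng1 (0.851). For Chat they were Pggt1b (0.815), Ddx39b (0.782) and Ywhab (0.764). Each is the best of 4299 over 15 arrays and is given as a description only.

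Among the other genes of these pathways, 1 passed the threshold, the monoamine oxidase Maoa. Over all probe sets tested, 1.98% passed the threshold in limma, 1.14% lower in SNc, and 15.4% had an unadjusted p under 0.05. Of 11 serotonin neuron genes 8 had a probe set and 5 passed the filter. Of these 5, 1 was called lower in SNc and 0 higher, and 2 had an unadjusted p under 0.05. Their median difference was -0.24. Of 13 noradrenaline neuron genes 9 had a probe set and 5 passed the filter, with 0 called in limma, 1 at an unadjusted p under 0.05 and a median of 0.00. Of 15 cholinergic neuron genes 9 had a probe set and 6 passed, with 0 called, 0 at an unadjusted p under 0.05 and a median of 0.07. The 3 genes with the smallest p in each list all missed an adjusted 0.05 in the exact permutation, Maoa included. The serotonin and noradrenaline lists share Ddc and Slc18a2, and Th, Ddc and Slc18a2 are dopamine neuron genes too. Maoa and Maob were put in the serotonin list only, though noradrenaline and dopamine neurons share the monoamine oxidases. The call of Maoa is therefore not particular to serotonin neuron genes. The other listed genes are not analysed here.

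Maoa is an enzyme of the outer mitochondrial membrane that breaks down serotonin, noradrenaline and dopamine. Its brighter probe set, D00688_s_at, ran from 378.2 to 1145 in SNc (median 735.8) and from 971.7 to 1745 in VTA (median 1385). SNc 6 was the only SNc array to reach the VTA range. The log2 difference was -0.86 (SE 0.19, adjusted p = 0.0238), and its other probe set gave -0.86 (SE 0.20, adjusted p = 0.0366). The call of the brighter probe set was lost without SNc 3, VTA 2 or VTA 6, without VTA 5 and VTA 8 together, and in the exact permutation, with adjusted p up to 0.0623. That of the other was lost without SNc 1, SNc 3, SNc 4, VTA 2, VTA 4, VTA 5, VTA 6 or VTA 8, and in 5 other alternatives, with adjusted p up to 0.0845. Maob, the related enzyme, had 112.2 ± 35.86 in SNc and 182.2 ± 63.75 in VTA (SNc minus VTA -0.61, SE 0.20, adjusted p = 0.137) and missed the threshold.

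**Figure D4:**
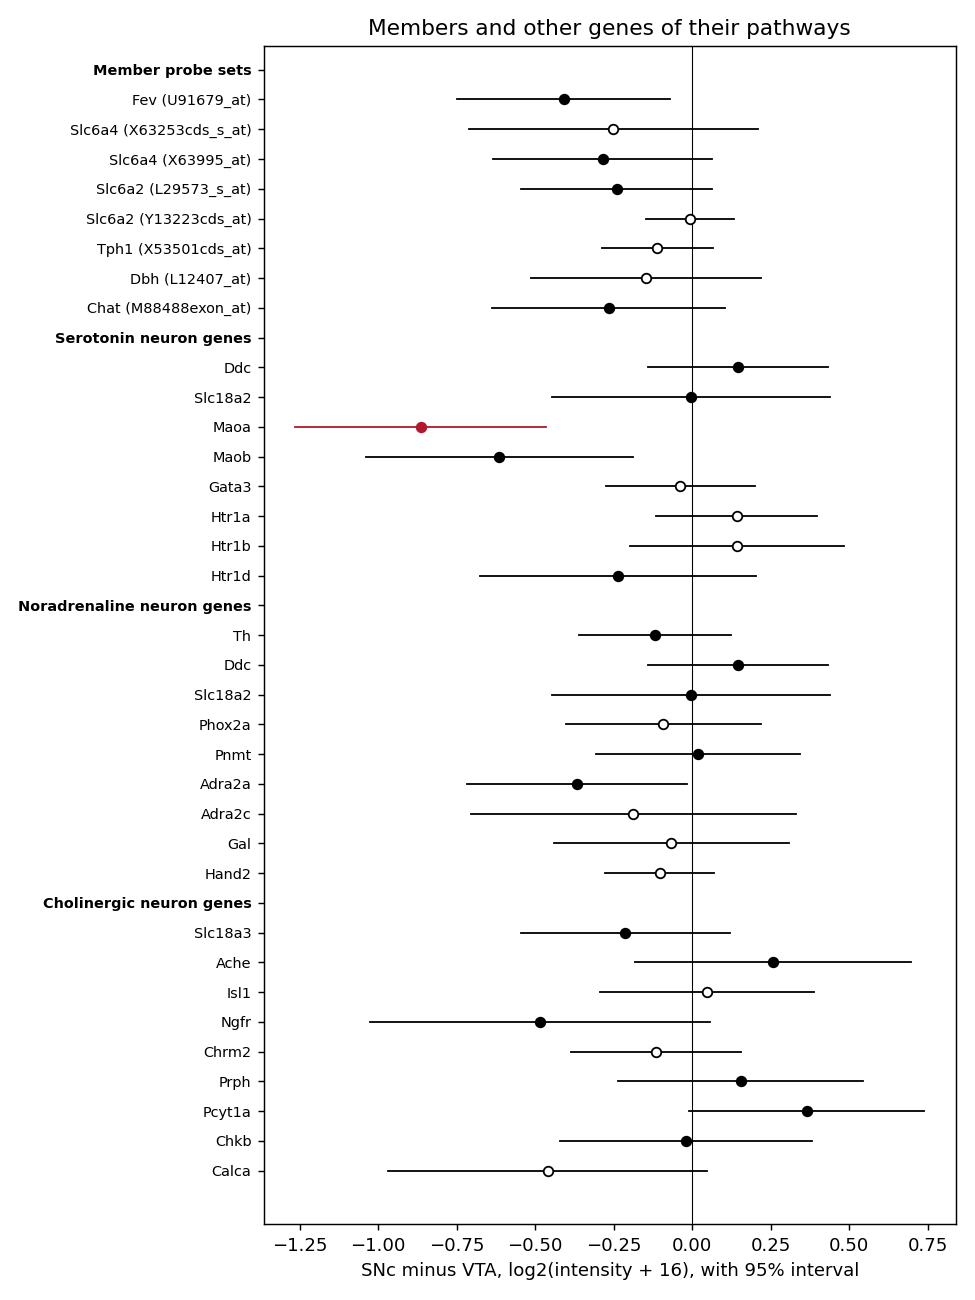
SNc minus VTA difference of log2(intensity + 16) with its unadjusted 95% interval (horizontal axis) for the 8 member probe sets and the other genes of the 3 pathways by their brightest probe set. Filled points passed the filter on low signals, open points did not, and red marks an adjusted p under 0.05, which Maoa alone reached; the intervals of all members except Fev include 0.

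The receptors and factors that accompany the members were mostly dim. Htr1d, a serotonin autoreceptor, had 46.25 ± 19.44 in SNc and 54.8 ± 13.34 in VTA (SNc minus VTA -0.24, adjusted p = 0.628), and without SNc 6, at 14.34, the difference was -0.10. Htr1a and Htr1b, other serotonin autoreceptors, and Gata3, a factor of serotonin neuron development, did not pass the filter, with means of 7.442 to 12.01. Adra2a, the alpha-2A receptor by which noradrenaline neurons sense their own transmitter, had 53.42 ± 17.71 in SNc and 71.16 ± 9.651 in VTA (SNc minus VTA -0.37, SE 0.17, adjusted p = 0.296), and its 2 other probe sets gave -0.22 and -0.17. Phox2a, a factor that noradrenaline neurons need, lay at 9.15 ± 5.34 in SNc and 10.63 ± 4.852 in VTA, under the filter like Dbh, as did Hand2 and Gal. Pnmt, which turns noradrenaline into adrenaline, was 73.14 ± 13.32 in SNc and 72.93 ± 20.01 in VTA (SNc minus VTA 0.02, adjusted p = 0.973).

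Slc18a3, the vesicular acetylcholine transporter, lies inside the span of the Chat gene by the RefSeq positions of the GRCr8 assembly, an arrangement known as the cholinergic locus. It had 95.46 ± 24.35 in SNc and 111.3 ± 18.62 in VTA (SNc minus VTA -0.21, SE 0.16, adjusted p = 0.562), and its other probe set gave -0.10 (adjusted p = 0.781). Without SNc 3 the first was -0.12. Both missed the threshold. The other probe set falls in the signal group of Slc6a2, whose median difference was -0.08, with 63.5% negative. Ngfr, the low-affinity neurotrophin receptor of cholinergic forebrain neurons, had 262 ± 83.17 in SNc and 358.5 ± 95.06 in VTA (SNc minus VTA -0.48, adjusted p = 0.376). SNc 6 was far below the rest at 69.23, where the other SNc arrays began at 257.7, and without SNc 6 the difference was -0.26. The dimmer Ngfr probe set, at 137.6 in SNc and 151.7 in VTA, gave -0.22 (adjusted p = 0.691). Ache, which splits acetylcholine, and Prph, an intermediate filament of motor neurons, had differences of 0.26 and 0.15 (adjusted p = 0.595 and 0.739), and Pcyt1a, an enzyme of choline phospholipid synthesis, one of 0.36 (adjusted p = 0.338). Dimmer probe sets of Ache gave 0.36 (adjusted p = 0.427) and, under the filter, 0.01. Isl1, a motor neuron factor, and Chrm2, a muscarinic autoreceptor, did not pass the filter.

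Markers of other cells were set beside the members. By their brightest probe sets, all 5 oligodendrocyte markers tested were negative, where 56.7% of all probe sets tested were. Their median was -0.17, with 0 past the threshold in limma and 1, Mobp, at an unadjusted p under 0.05. Mag was only at -0.006, and its other probe sets gave 0.036 and 0.055. The summed signal of the oligodendrocyte markers ran from 5269 to 9490 in SNc and from 7686 to 11310 in VTA. All 5 brightest probe sets passed the filter. Mag, at 233.7 in SNc and 243.9 in VTA, and Mog, at 357.3 and 403.8, were still dimmer than Ins2 among the genes of other organs. Of 5 astrocyte markers tested 3 were negative, with a median of -0.13 and summed signals, Gja1 included, of 3020 to 4499 in SNc and 3418 to 4936 in VTA. Gja1, an astrocyte connexin, was near background at 3.541 ± 1.346 in SNc and 4.308 ± 1.377 in VTA. Of 4 microglia markers 1 passed the filter, Cx3cr1, and the summed signals ran from 67.17 to 89.77 in SNc and from 63.14 to 86.99 in VTA. Of 4 GABA neuron markers Gad1 and Pvalb were higher in SNc past the threshold, and Gad2 and Slc32a1 were not past it. A dimmer probe set of Slc32a1 gave -0.42 (adjusted p = 0.162), where its brightest gave 0.07. The brightest probe sets of the 4 had summed signals of 908.5 to 1848 in SNc and 550.9 to 1022 in VTA. Their part in the members' differences was not tested.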

How the data were processed

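Laser-captured neurons were compared between 8 SNc and 7 VTA arrays, grouped by title. For each array the deposited file gives a linear intensity per probe set. The 2% trimmed mean was 150.2 on every array, so the authors had scaled the values; how the intensities were computed is not given in the labels. Of 8799 probe sets, 59 controls were left out. Symbols came from the platform annotation, and gene identifiers matched to the rat table of GRCr8 changed 0 of them.

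The deposited scaling was kept, 16 was added, log2 was taken, and probe sets in the lowest 40% by mean log2 were left out. The other 5244 were fitted with limma 3.58.1 in R 4.3.3 (two-sided, Benjamini-Hochberg over all, threshold 0.05). Values of probe sets under the filter come from the same fit without a filter. A listed gene is given by its brightest probe set. The fit was tested on simulated data. Correlations used 100000 permutations within regions. For arrays, their number limits precision.

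The members and gene lists were chosen with earlier results of these data known. Named were all member probe sets, genes of each pathway list past the threshold or among its 3 smallest p, and the 3 probe sets most like each tested member; marker values and other list genes beyond this rule were named after their values were seen. Alternatives were other scalings, offsets, filters, blocks, weights, variance, an exact permutation and leaving out arrays.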

Additional observations from a re-analysis of the deposited data

Results flagged for a closer look

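Among 36 sets of arrays, 1 region each for the 8 member probe sets and 10 probe sets of named pathway genes, 2 held an array that stood far from the others by Dixon's 95% critical value, where chance gives about 1 in 20. For Slc6a2 (L29573_s_at), VTA 3 was at 53.12 and the other VTA arrays lay between 77.32 and 94.29. Without VTA 3 the difference of this probe set was -0.32 (unadjusted p = 0.0391, adjusted p = 0.326 in limma). For Ngfr (U25650_f_at), SNc 6 was at 69.23 and the other SNc arrays lay between 257.7 and 342.1. Without SNc 6 its difference was -0.26 (adjusted p = 0.536 in limma), beside -0.48 (adjusted p = 0.376) over all arrays.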

How the results depend on the processing

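The count of member probe sets past the threshold was 0 as reported and under all 27 alternatives, of which 1, leaving out both VTA 5 and VTA 8, was chosen after seeing the data. The tested members kept a negative difference in every alternative, from -0.48 to -0.30 for Fev, -0.37 to -0.19 for Slc6a4, -0.32 to -0.15 for Slc6a2 and -0.35 to -0.15 for Chat, with adjusted p from 0.115 to 0.365, 0.312 to 0.644, 0.326 to 0.674 and 0.341 to 0.695. Without VTA 5 and VTA 8 they were -0.39, -0.21, -0.22 and -0.31. Of the 4 under the filter, the dimmer Slc6a2 probe set changed sign in 8 of 26 alternatives, from -0.05 to 0.09, the dimmer Slc6a4 probe set lay between -0.43 and -0.11, Dbh between -0.31 and -0.02, and Tph1 was -0.40 with an offset of 1. Of the other genes named, Ddc turned to -0.009 after quantile normalization, from 0.15; the cause was not tested. Over the alternatives, calls among all probe sets, 104 as reported, ran from 56 without SNc 3 to 184 with array weights. They were 59 with an offset of 1, 68 in the exact permutation, and 69, 68, 66, 59, 68, 62 and 64 without SNc 2, SNc 4, VTA 1, VTA 2, VTA 3, VTA 5 and VTA 6.

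Same-numbered arrays correlated by 0.044 to 0.254 in their deviations from the region means, over 0.1 in 5 of 7 pairs, and 3 of 7 SNc arrays correlated best with their own number. The labels do not say what the number marks, and not every pair was over 0.1, so the arrays were not treated as pairs; whether the number marks a shared source is not known. With the replicate block, which leaves SNc 7 without a partner, Fev was -0.48 (adjusted p = 0.115), 0 members passed and 99 probe sets were called; with the number as a random block, 153 were called. Signals under the filter limit what can be said of Dbh, Tph1 and the dimmer probe sets of Slc6a4 and Slc6a2.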
